A study of Homo sapiens with 22 samples.

Results

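Gene expression in Kasumi-1 cells carrying the first of 2 shRNAs against FIP1L1 was compared with that in cells carrying a control shRNA, across all genes of an RNA-seq read count table. Both groups were chosen by their labels, 4 control and 4 shRNA 1 libraries, which are 8 of the 22 samples in the series. Kasumi-1, a widely used human line, came from an acute myeloid leukaemia in which a translocation joins RUNX1 to RUNX1T1. All cells were grown in RPMI with 10% FBS, were transduced with a lentivirus and were selected with puromycin, so the groups share that handling and differ in the shRNA. How long after transduction the cells were harvested is not stated in the sources used here. A second FIP1L1 shRNA (shRNA 2, 4 libraries) was left out of the comparison and its values are set beside some results.

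FIP1L1 encodes a subunit of the complex that recognises the polyadenylation signal of pre-mRNAs, where it helps bring poly(A) polymerase to the RNA before cleavage and tailing. Lowering it can change which of several poly(A) sites of a gene is used as well as how much mRNA is made. Read counts summed over a gene, as here, do not separate these. In bulk RNA, fewer cells of a kind and less RNA per cell cannot be told apart.

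FIP1L1 (gene ENSG00000145216, on the plus strand of GRCh38 chromosome 4, 53377643 to 53460861) had 42.2, 38.9, 44.1 and 39.9 CPM, reads scaled to a common library size, in control replicates 1 to 4. In shRNA 1 replicates 1 to 4 it had 14.1, 14.7, 15.3 and 17.9 CPM. The lowest control library lay more than 2-fold above the highest shRNA 1 library. Its level fell by 1.41 log2 units (SE 0.11, edgeR adjusted p = 6.53e-09), to 37.6% of the control mean. Part of LNX1 lies opposite FIP1L1, and without a stated strand setting reads of both genes cannot be told apart there. The same limit holds for other genes described here with a gene on the opposite strand, among them TPI1 (SPSB2), LOX (SRFBP1), TNXB (CYP21A2), DPEP2 (DUS2), MEF2C (MEF2C-AS1), FADS2 (FADS1), PC (LRFN4), RPS29 (LRR1), PPP1CA (RAD9A), SQSTM1 (MRNIP), NPC2 (ISCA2), FTH1 (BEST1), MDM2 (CPM), NHP2 (RMND5B), DDIT3 (MARS1) and HLA-DPB1 (HLA-DPA1).

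Of 48162 genes in the table, 15165 had enough reads to be tested, and of these 8330 were called at an edgeR adjusted p under 0.05, which is 54.9%. Of all tested genes, 4231 (27.9%) were higher and 4099 (27%) lower with shRNA 1. A change of at least 2-fold was met by 1544 called genes in the upward direction (10.2%) and 1185 in the downward direction (7.81%), and a change of at least 4-fold by 390 (2.57%) and 212 (1.4%). All 4 libraries of one group lay beyond all 4 of the other in 7568 genes, or 49.9%. Over all tested genes the log2 change had a median of 0.03. The scaling to a common library size itself centres the changes, so a shift shared by most genes cannot be seen in this median or in these shares. Genes called higher summed to 179510 CPM in the control and 263918 CPM with shRNA 1, and genes called lower to 557306 and 349356 CPM. These shares are the background against which each gene list is read: a list in which 27.9% of members rose and 27% fell is like the rest of the transcriptome.

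**Figure D1:**
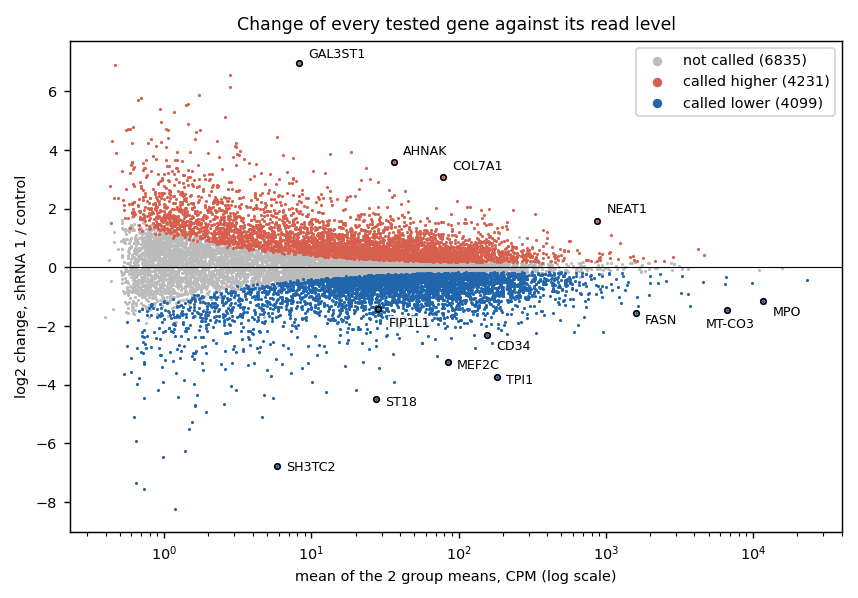
Each point is 1 of 15165 tested genes; the x axis is the mean of the control and shRNA 1 group means in CPM on a log scale, and the y axis is the log2 change of shRNA 1 over control. Red points were called higher (4231), blue points lower (4099) and grey points were not called (6835). At the right end, MPO and MT-CO3 lie below 0, and the widest changes on both sides lie among genes of low level.

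Total counts ran from 12236937 to 19154704 in the control libraries and from 14019866 to 20388437 in the shRNA 1 libraries. The first principal component held 64.7% of the variance of log2 CPM and separated the groups. Across genes, libraries correlated with r of 0.981 to 0.987 within the control, 0.970 to 0.989 within shRNA 1 and 0.916 to 0.940 between the groups. The shRNA 1 libraries were the more variable group, with a biological coefficient of variation of 0.175 against 0.0966 in the control. Replicates 3 and 4 of shRNA 1 were closest to each other (r = 0.989), and replicates 1 and 2 lay at the other end of the second component, which held 9.09% of the variance. Several transcripts differ between these shRNA 1 libraries, and their values are given in full where they arise.

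The 15 genes with the highest log2 changes, among called genes with a mean of at least 5 CPM and no overlap of groups, were GAL3ST1, HGFAC, MS4A7, SNORD3A, LINC00304, NLRP6, AHNAK, AOC3, NKPD1, PKDREJ, TNXB, WFIKKN1, COL7A1, DPEP2 and RASSF2. GAL3ST1 (GRCh38 chromosome 22, 30554635 to 30574587), the sulfotransferase that makes the glycolipid sulfatide, was nearly silent in the control at 0.0747, 0.427, 0.0692 and 0 CPM. In the shRNA 1 libraries it reached 18.8, 17.3, 15.8 and 13.3 CPM, a log2 change of 6.96 (SE 0.39, edgeR adjusted p = 1.54e-10). With 1 control library at 0 and another 2 below 0.1 CPM, the size of that fitted fold depends on how the fit treats very low counts.

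COL7A1 (GRCh38 chromosome 3, 48564073 to 48595267) encodes the collagen of anchoring fibrils under the skin. It stood at 17.6, 19.8, 15.4 and 14.5 CPM in the control and at 117, 143, 138 and 165 CPM with shRNA 1, and rose by 3.07 log2 units (SE 0.12, edgeR adjusted p = 2.28e-12). The groups were far apart, with the lowest shRNA 1 library above 5 times the highest control library.

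AHNAK (GRCh38 chromosome 11, 62433542 to 62556235), which encodes a very large scaffold protein under the plasma membrane, went from 6.72, 8.28, 2.91 and 4.85 CPM to 66, 93, 56.5 and 53.7 CPM (3.59 log2, SE 0.29, edgeR adjusted p = 3.95e-06). MS4A7, a four-span membrane protein typical of monocytes and macrophages, went from 2.91, 3.67, 0.692 and 2.01 CPM to 37.7, 30.7, 35.3 and 35.8 CPM (3.94 log2, SE 0.28, edgeR adjusted p = 4.74e-08). RASSF2, a Ras-association domain protein, rose from 6.79, 5.12, 4.91 and 5.13 CPM to 46.8, 46.8, 45.1 and 39.8 CPM (3.02 log2, SE 0.13, edgeR adjusted p = 6.05e-12). In all 3 genes the lowest shRNA 1 library lay more than 5-fold above the highest control library.

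SNORD3A, the U3 small nucleolar RNA of pre-rRNA processing, rose as well, yet its shRNA 1 libraries spread 3-fold, at 15.3, 13.7, 28.5 and 43.2 CPM against 2.99, 1.2, 1.31 and 1.45 in the control (3.85 log2, SE 0.48, edgeR adjusted p = 0.000117). Its short transcript has near-identical copies, so its count is uncertain. AOC3, an amine oxidase of vessel walls and adipocytes, rose from 4.12 ± 0.754 to 42.8 ± 9.44 CPM. HGFAC, the protease that activates hepatocyte growth factor, rose from 0.466 ± 0.424 to 11.2 ± 0.806 CPM, and the inflammasome-related receptor NLRP6 rose from 1.07 ± 0.60 to 13.9 ± 1.2 CPM.

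At the other end stood SH3TC2, ST18, ZNF24TR, CUX2, CDH3, CD93, TPI1, IL18R1, PGBD4P1, LOX, TRBV28, MACROD2, ENSG00000232197, NOTCH3 and CD109. SH3TC2 (GRCh38 chromosome 5, 148923639 to 149063163), an endosomal adaptor best known from inherited neuropathy, was at 9.86, 8.71, 15.4 and 12.1 CPM in the control and at 0.229, 0.0923, 0 and 0.0668 CPM with shRNA 1 (-6.77 log2, SE 0.41, edgeR adjusted p = 3.41e-10). One shRNA 1 library had no read of it. ST18, a zinc-finger transcription factor, fell from 50.8, 52.6, 48.6 and 58.9 CPM to 2.23, 2.12, 2.54 and 2.47 CPM (-4.50 log2, SE 0.13, edgeR adjusted p = 1.46e-13), with little spread in either group.

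TPI1 (GRCh38 chromosome 12, 6867119 to 6870948) encodes triosephosphate isomerase, the glycolytic enzyme that interconverts the 3-carbon sugar phosphates. It stood at 326, 302, 377 and 346 CPM in the control libraries and at 20.2, 27, 23.9 and 29.8 CPM with shRNA 1. That is 7.46% of the control mean (-3.74 log2, SE 0.11, edgeR adjusted p = 2.04e-13), and no library came near the other group.

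Several others code for surface or matrix proteins. CD93, a lectin-like receptor of endothelial and early myeloid cells, fell from 56.8, 56.9, 72.2 and 85.2 CPM to 3.83, 3.14, 4.67 and 6.75 CPM (-3.91 log2, SE 0.21, edgeR adjusted p = 3.13e-09). LOX, which cross-links collagen and elastin, fell from 53.1 ± 3.92 to 4.91 ± 0.682 CPM, the cell adhesion molecule CDH3 from 18.9 ± 1.45 to 1.24 ± 0.738 CPM, and the interleukin-18 receptor chain IL18R1 from 9.85 ± 2.34 to 0.74 ± 0.226 CPM. NOTCH3, a receptor of the NOTCH pathway, fell from 17.2 ± 3.7 to 1.82 ± 0.877 CPM, and the GPI-anchored CD109 from 40.5 ± 3.49 to 4.29 ± 0.546 CPM. Among transcription factors, CUX2 fell from 23.8 ± 2.07 to 1.27 ± 0.474 CPM. PGBD4P1 and TRBV28 lie next to each other in the T cell receptor beta locus on chromosome 7 and fell to 8.2% and 9.17% of their control means.

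**Figure D2:**
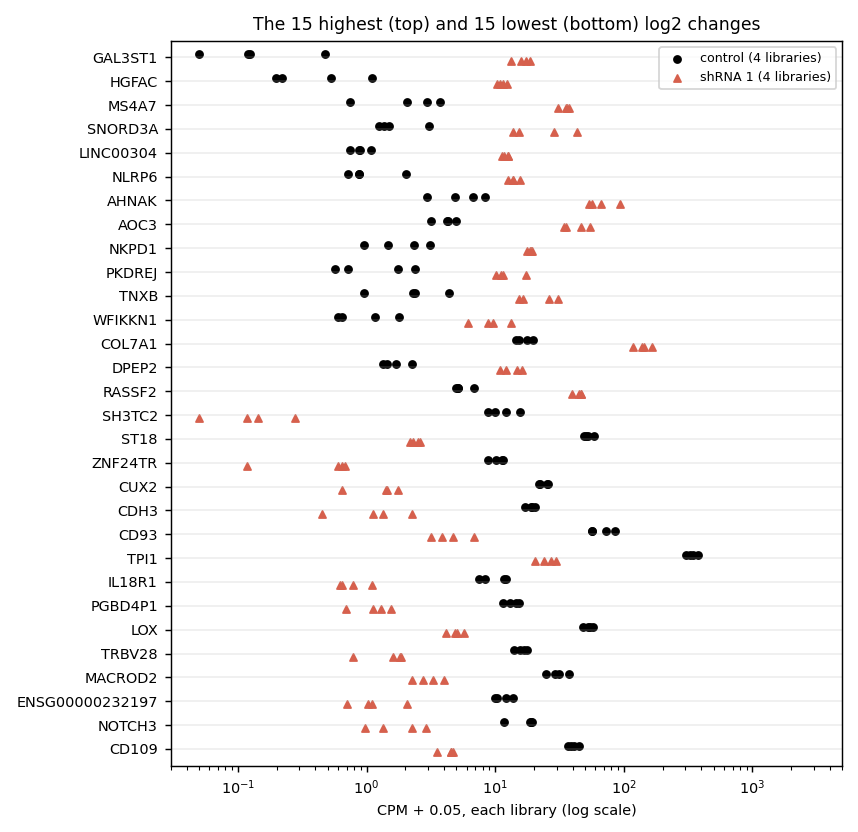
CPM plus 0.05 on a log axis for the 15 genes with the highest and the 15 with the lowest log2 changes; black circles are the 4 control libraries and red triangles the 4 shRNA 1 libraries. No gene shows an overlap, which the choice of these genes required, and the shRNA 1 libraries of SNORD3A spread from 13.7 to 43.2 CPM.

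The same 30 genes were read in the shRNA 2 libraries, in a fit of 12 libraries. Both comparisons share the 4 control libraries, so their values stand side by side and are not independent of each other. Of the 15 highest genes, 12 were also called higher with shRNA 2 and 3 were not called. Of the 15 lowest, 11 were called lower with shRNA 2 and 4 were not called. None was called in the opposite direction. The share of all genes called with shRNA 2 is not given here, so these counts have no background beside them. Where shRNA 2 was set directly against shRNA 1, 13 of the 15 highest and 13 of the 15 lowest differed, each time with shRNA 2 nearer to the control. The genes were chosen for their extreme changes with shRNA 1, a choice that itself favours values nearer to the control with shRNA 2. The share of all genes that differed between the shRNAs is not given here either.

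GAL3ST1 stood at 0.212, 0.113, 0.164 and 0.331 CPM in the shRNA 2 libraries, within the range of the control libraries (0.67 log2 against control, edgeR adjusted p = 0.444). TPI1 stood at 342, 336, 349 and 349 CPM with shRNA 2 (0.02 log2, edgeR adjusted p = 0.834), level with the control. ST18 stood at 54.4, 46.7, 61.2 and 57.4 CPM (0.05 log2, edgeR adjusted p = 0.655). All 3 differed between the shRNAs, with shRNA 2 minus shRNA 1 at -6.28, 3.78 and 4.57 log2 units (edgeR adjusted p = 3.63e-13, 3.22e-18 and 3.22e-18).

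MS4A7 (-0.46 log2 with shRNA 2), TNXB (-0.21), ZNF24TR (0.06) and CD93 (-0.30) were likewise not called with shRNA 2. MACROD2, an ADP-ribosylhydrolase, was low with both, from 30.6 ± 5.28 to 3.04 ± 0.741 CPM with shRNA 1 and at 2.91, 3.34, 4.49 and 2.72 CPM with shRNA 2 (-3.18 log2). It did not pass the test between the shRNAs (edgeR adjusted p = 0.46), nor did AOC3 (0.05), WFIKKN1 (0.431) or NOTCH3 (0.0619). FIP1L1 itself was at 20.2, 20.2, 19.1 and 18.7 CPM with shRNA 2, 0.35 above shRNA 1 log2 units (edgeR adjusted p = 0.00415). Which of the genes that differ between the shRNAs follow this difference in FIP1L1 was not tested.

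**Figure D3:**
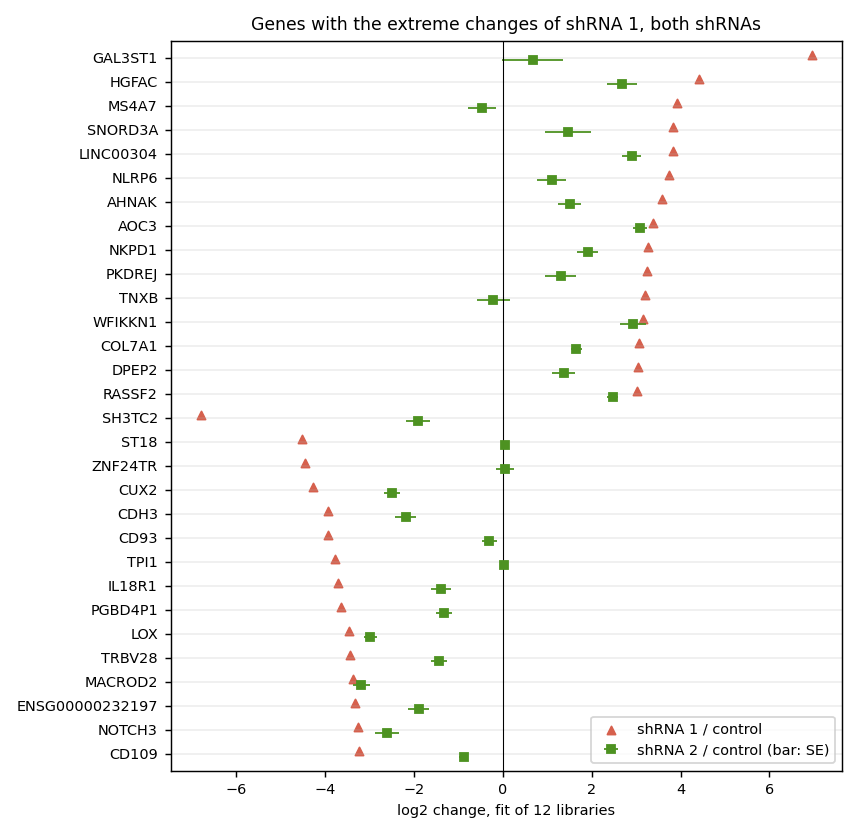
Log2 change over control in the fit of 12 libraries for the same 30 genes, with shRNA 1 as red triangles and shRNA 2 as green squares (bars are standard errors). GAL3ST1, MS4A7, TNXB, ST18, ZNF24TR, CD93 and TPI1 lie near 0 with shRNA 2, while AOC3, WFIKKN1, LOX, MACROD2 and NOTCH3 lie near their shRNA 1 values.

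Named gene lists were read against the background of 27.9% higher and 27% lower. Among lists with at least 10 tested members, the share called lower was highest for mitochondrial DNA genes (100% of tested members), glycolysis (85.7%), ribosome biogenesis (82.8%), cholesterol biosynthesis (80.8%), fatty acid synthesis (75%), heat shock proteins and chaperonins (73.1%), the tricarboxylic acid (TCA) cycle (72%) and DNA replication (66.7%). The share called higher was highest for autophagy and lysosome genes (64.4%), host genes of small nucleolar RNAs (58.3%) and monocyte and macrophage markers (53.8%). The share called lower also rose with read level over all genes: it was 9.28% in the quartile of lowest mean CPM and 45.2% in the highest, where 25.3% were called higher. Most metabolic and housekeeping lists hold genes of high level, and how far level accounts for their counts was not tested.

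**Figure D4:**
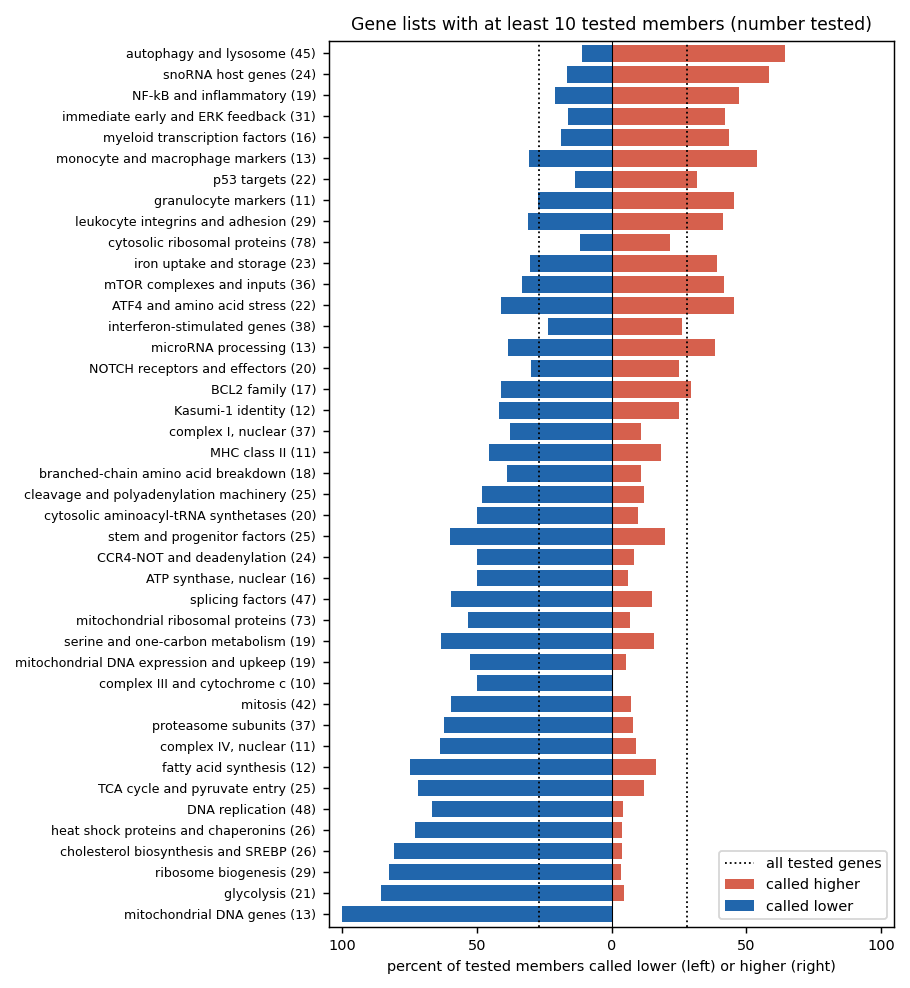
Bars show the percent of tested members called lower (blue, to the left) and higher (red, to the right) for each list with at least 10 tested members, with the number tested in brackets. Dotted lines mark 27% lower and 27.9% higher over all tested genes. Mitochondrial DNA genes, glycolysis and ribosome biogenesis stand at the bottom, and autophagy and lysosome genes at the top.

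Cholesterol is made from acetyl-CoA through mevalonate and squalene by enzymes whose genes share control by the transcription factor SREBP2, which is held in the endoplasmic reticulum until sterol runs low. Of 26 tested genes on this list, 21 were lower with shRNA 1, 1 was higher and 4 were not called, with a median log2 change of -0.66. The 250 bases before the start of 5 genes of the list are shown, from RefSeq on GRCh38.p14, read 5′ to 3′ along each gene. These 5 were picked without a set rule, and each holds a motif marked below. They are SREBF2 (chr22:41832855-41833104, plus strand), HMGCS1 (chr5:43313413-43313662, minus strand), EBP (chrX:48521558-48521807, plus strand), LSS (chr21:46228775-46229024, minus strand) and NSDHL (chrX:152830813-152831062, plus strand). Capitals mark TCACNCCAC, the core of a sterol regulatory element, and CCAAT, the box bound by NF-Y, each on either strand, so that ATTGG is CCAAT read on the other strand.
SREBF2: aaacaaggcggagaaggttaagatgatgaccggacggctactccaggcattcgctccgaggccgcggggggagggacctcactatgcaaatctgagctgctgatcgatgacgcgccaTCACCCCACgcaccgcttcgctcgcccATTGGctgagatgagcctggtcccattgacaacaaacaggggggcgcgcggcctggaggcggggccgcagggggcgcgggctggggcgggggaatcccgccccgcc
HMGCS1: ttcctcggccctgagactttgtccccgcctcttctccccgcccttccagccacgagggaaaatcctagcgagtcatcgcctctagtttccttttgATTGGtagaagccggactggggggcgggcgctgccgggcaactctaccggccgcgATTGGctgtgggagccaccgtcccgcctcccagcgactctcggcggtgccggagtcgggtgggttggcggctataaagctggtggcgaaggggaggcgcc
EBP: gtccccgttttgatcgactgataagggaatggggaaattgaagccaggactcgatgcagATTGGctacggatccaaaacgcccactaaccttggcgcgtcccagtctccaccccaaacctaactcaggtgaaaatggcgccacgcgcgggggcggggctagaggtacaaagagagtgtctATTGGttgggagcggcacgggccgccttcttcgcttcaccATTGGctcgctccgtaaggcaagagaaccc
LSS: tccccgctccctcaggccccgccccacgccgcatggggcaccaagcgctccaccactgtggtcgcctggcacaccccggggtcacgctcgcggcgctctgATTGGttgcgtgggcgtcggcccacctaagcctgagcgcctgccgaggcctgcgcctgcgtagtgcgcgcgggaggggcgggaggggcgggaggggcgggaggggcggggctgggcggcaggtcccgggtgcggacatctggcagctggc
NSDHL: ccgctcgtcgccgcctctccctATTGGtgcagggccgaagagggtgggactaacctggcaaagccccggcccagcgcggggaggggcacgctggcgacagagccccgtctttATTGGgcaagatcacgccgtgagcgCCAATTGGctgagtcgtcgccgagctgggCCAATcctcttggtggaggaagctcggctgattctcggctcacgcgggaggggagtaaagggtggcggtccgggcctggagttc

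The motif search ran over the same windows with a further 50 bases after the start. CCAAT was found in 15 of the 20 tested members of the list with a promoter in the table (75%), and in 36.4% of 10576 tested genes. Among the list members called lower it was found in 11 of 15 (73.3%), a like share. MSMO1, MVD and INSIG1, which were not called, also hold it, as does HSD17B7, which rose by 0.46 log2 units. TCACNCCAC was found in 1 of the 20, SREBF2, and in 1.1% of tested genes. Among genes called lower, CCAAT stood in 36.5%, and among genes called higher in 37.7%. In the fatty acid list it stood in 6 of 11 (54.5%). These are matches of letters in a fixed window and not sites shown to be bound. FDFT1, SQLE, ACAT2 and FASN were among the genes with no entry.

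At the head of the pathway, HMGCS1, which makes HMG-CoA, fell from 191 ± 9.55 to 89.8 ± 4.71 CPM. SQLE, which oxidises squalene, stood at 162, 154, 169 and 157 CPM in the control and 61.8, 58.6, 55 and 57.9 CPM with shRNA 1 (-1.46 log2, SE 0.07, edgeR adjusted p = 2.61e-11). The next enzyme, the cyclase LSS, went from 157, 160.2, 158 and 136 CPM to 51.6, 53.8, 62.1 and 67.2 CPM (-1.38 log2, SE 0.09, edgeR adjusted p = 9.21e-10). In both genes every shRNA 1 library lay below 50% of the lowest control library.

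EBP, a sterol isomerase late in the pathway, had the largest fall of the list, from 93.3, 92.2, 112 and 104 CPM to 31.8, 26.7, 35.2 and 38.6 CPM (-1.60 log2, SE 0.11, edgeR adjusted p = 1.1e-09). NSDHL fell by 1.15 and DHCR7 by 1.15 log2 units. Of the regulators, SREBF1 fell by 1.03, SREBF2 fell by 0.35 and the escort protein SCAP fell by 0.65, while INSIG1, which holds SCAP back when sterol is plentiful, was not called (0.07). IDI1 (-0.14), MVD (-0.24) and MSMO1 (0.29) were not called either, and HSD17B7 rose by 0.46.

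Fatty acids are built from the same acetyl-CoA. In that list 9 of 12 genes were lower, 2 were higher and 1 was not called (median -0.90). FASN, the synthase itself, stood at 2665, 2454, 2262 and 2183 CPM in the control and 874, 710.1, 819 and 810.0 CPM with shRNA 1 (-1.57 log2, SE 0.08, edgeR adjusted p = 7.06e-11), 33.6% of the control mean. The desaturase SCD went from 669, 727, 594 and 634 CPM to 248, 231, 218 and 204 CPM (-1.54 log2, SE 0.08, edgeR adjusted p = 6.05e-11). The elongase ELOVL6 fell to 24.4% and the desaturase FADS2 to 31% of the control. The exceptions were the NADPH-making malic enzyme ME1, which rose from 6.53 ± 0.654 to 12 ± 2.61 CPM, and the acetate-activating ACSS2, which rose by 0.63.

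Glycolysis splits glucose to pyruvate, and of 21 tested genes of the pathway, its glucose and lactate transporters included, 18 were lower, 1 was higher and 2 were not called. The median log2 change was -0.94, and 9 fell at least 2-fold. TPI1, described above, was the extreme. LDHA, which turns pyruvate into lactate, stood at 961, 1066, 1023 and 1091 CPM in the control and 294, 244, 249 and 261 CPM with shRNA 1 (-1.98 log2, SE 0.08, edgeR adjusted p = 2.2e-12). ENO1, enolase, went from 2407, 2379.9, 2321 and 2298 CPM to 958, 928, 893 and 962 CPM (-1.33 log2, SE 0.07, edgeR adjusted p = 3.15e-11). Libraries of each group lay close together for both enzymes.

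Along the pathway, the glucose transporter SLC2A1 fell by 1.05 log2 units, the hexokinase HK1 fell by 1.11, the isomerase GPI fell by 0.99, the phosphofructokinase PFKL fell by 0.94, the aldolase ALDOA fell by 0.90, GAPDH fell by 0.78, PGK1 fell by 1.29, the mutase PGAM1 fell by 1.16 and pyruvate kinase PKM fell by 0.57. ALDOC fell to 26.4% of its control mean. PFKM, a phosphofructokinase at a low level here, rose from 1.86 ± 0.781 to 3.62 ± 1.06 CPM. With shRNA 2, against the same control libraries, LDHA fell by 0.97, ENO1 by 0.66 and ALDOC by 1.76 log2 units (edgeR adjusted p = 3.06e-10, 3.55e-09 and 6.3e-12).

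The pentose phosphate branch yields NADPH and ribose. Of 7 genes, 2 were higher, 3 lower and 2 not called. In the TCA cycle and pyruvate entry, 18 of 25 were lower and 3 higher (median -0.34). The largest fall was that of pyruvate carboxylase PC, from 45.7 ± 5.69 to 12.8 ± 2.75 CPM, followed by the oxoglutarate dehydrogenase OGDH, from 154 ± 8.97 to 69.7 ± 5.43 CPM. Pyruvate dehydrogenase PDHA1 fell by 0.77 and PDHX, another of its subunits, rose by 0.58.

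Mitochondrial DNA encodes 13 subunits of the respiratory chain, all transcribed from its own promoters and processed from long precursors. All 13 were lower with shRNA 1. Their summed level was 85769, 82908, 93217 and 85553 CPM in control replicates 1 to 4 and 68806, 60681, 45857 and 45541 CPM in shRNA 1 replicates 1 to 4. No shRNA 1 library reached a control library, and replicates 3 and 4 lay lowest.

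The falls were unequal. MT-CO3, a cytochrome oxidase subunit, went from 9929, 9394, 10212 and 9586 CPM to 4679, 3632, 2869.7 and 3049 CPM (-1.46 log2, SE 0.12, edgeR adjusted p = 1.2e-07). MT-ATP6, of the ATP synthase, went from 5585, 4874, 5982 and 4960.2 CPM to 2693, 2192, 1807 and 1929.7 CPM (-1.31 log2, SE 0.11, edgeR adjusted p = 6.57e-08). MT-CO1, also of cytochrome oxidase, went from 25452, 26353, 28188 and 27173 CPM to 25419, 22285, 16647 and 15416 CPM (-0.43 log2, SE 0.13, edgeR adjusted p = 0.0119). For MT-CO1 the first shRNA 1 library lay just below the lowest control library, while MT-CO3 was at 36.4% of the control mean.

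MT-ATP6 ends at the base where MT-CO3 begins (8527 to 9207 and 9207 to 9990 on GRCh38), and MT-ATP8, which overlaps MT-ATP6, had few counts with overlapping groups (33, 11.8, 27 and 15.1 CPM against 6.18, 6.97, 11.6 and 15.6). MT-ND3, at 42.6% of control, and MT-ND4L, at 49.7%, follow on the same strand, whereas MT-ND1 (78.7%) and MT-ND2 (71.2%) stand earlier and, with MT-CO1, fell least. The falls did not follow the order of the genes throughout. MT-CO2, just before MT-ATP8, stood at 67.9% and MT-ND4, after MT-ND4L, at 69%. The later MT-ND5 and MT-CYB stood at 54.7% and 53.6%. With shRNA 2, MT-CO3 was at -0.13, MT-ATP6 at -0.14 and MT-CO1 at 0.11 log2 units against control, none of them called.

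**Figure D5:**
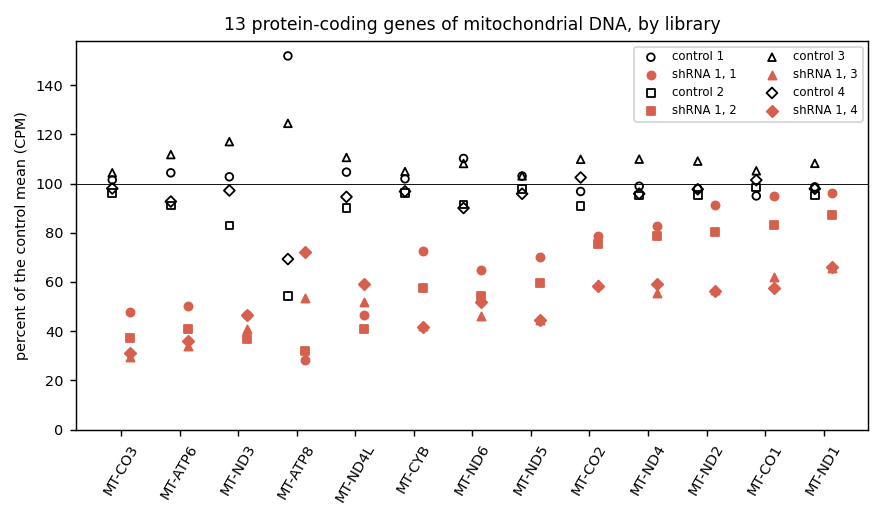
For the 13 protein-coding genes of mitochondrial DNA, each library's CPM is given as percent of the control mean, with open symbols for the control and filled symbols for shRNA 1 (1 shape per replicate number). The genes are ordered from MT-CO3 at 36.4% to MT-ND1, and shRNA 1 replicates 3 and 4 lie below replicates 1 and 2 in most of them.

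Nuclear genes that copy and express mitochondrial DNA were lower in 10 of 19 cases. TFAM, which packages the DNA and starts its transcription, went from 129, 138, 147 and 136 CPM to 57.8, 52, 51.3 and 46.3 CPM (-1.41 log2, SE 0.08, edgeR adjusted p = 1.94e-10), with a clear gap between the groups. The helicase TWNK fell by 0.84 log2 units, the single-strand binding protein SSBP1 fell to 50.1% of control, and LRPPRC and SLIRP, which together stabilise mitochondrial mRNAs, fell by 0.46 and 1.04. POLRMT, the RNA polymerase, rose by 0.21.

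Respiratory chain subunits encoded in the nucleus fell less uniformly. In complex I, 14 of 37 were lower and 4 higher, with 19 not called. NDUFB7 fell from 37.7 ± 6.13 to 6.27 ± 2.37 CPM and NDUFB10 from 39 ± 6.87 to 13.2 ± 4.45 CPM, whereas NDUFA13 rose from 5.1 ± 0.619 to 14.2 ± 2.56 CPM. In complex III with cytochrome c, 5 of 10 were lower and none was higher. CYC1, cytochrome c1, stood at 295, 289.5, 304 and 290.5 CPM in the control and 61.4, 65.5, 79.6 and 103 CPM with shRNA 1 (-1.93 log2, SE 0.13, edgeR adjusted p = 3.84e-08).

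In complex IV, 7 of 11 were lower, and COX7C was the 1 member that rose, from 59.6 ± 8.48 to 129 ± 24.6 CPM. In the ATP synthase, 8 of 16 were lower. Its catalytic beta subunit ATP5F1B had the steepest fall, from 1019.5, 951, 1050.2 and 994 CPM to 202, 207, 223 and 240.3 CPM (-2.20 log2, SE 0.08, edgeR adjusted p = 3.86e-13), while the alpha subunit ATP5F1A was not called, at 767 ± 33.9 and 755 ± 37.5 CPM. Both subunits stand in equal number in the enzyme. With shRNA 2 ATP5F1B was at -0.17 log2 units (edgeR adjusted p = 0.0272).

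Of 73 mitochondrial ribosomal proteins, 39 were lower and 5 higher. MRPS34 fell to 31.9%, MRPL23 to 33.2% and MRPL12 to 35.2% of control. Of the cytosolic ribosomal proteins, 52 of 78 were not called, 17 were higher and 9 lower. Their reads can be shared with many processed pseudogenes.

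RPS29 had the largest fall among them. It went from 480.0, 394, 487 and 434 CPM to 84.8, 87.5, 165 and 202 CPM (-1.74 log2, SE 0.32, edgeR adjusted p = 0.0031), with shRNA 1 replicates 1 and 2 about 2-fold below replicates 3 and 4. RPL11, which also binds MDM2, went from 1064, 934, 1076 and 1039 CPM to 468, 453, 481 and 537 CPM (-1.09 log2, SE 0.07, edgeR adjusted p = 1.65e-09). RPS27 rose from 396 ± 49.9 to 736 ± 218 CPM, the largest log2 rise of the list.

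Ranked by difference in CPM among called genes without overlap of groups, PABPC1, the cytoplasmic poly(A)-binding protein, had the largest gain. It stood at 3274, 3361, 3330.1 and 3361 CPM in the control and 5667, 5339, 4996 and 4672 CPM with shRNA 1 (0.63 log2, SE 0.07, edgeR adjusted p = 1.32e-06), and was lower than control with shRNA 2 (-0.39 log2, edgeR adjusted p = 2.97e-05). The ribosomal stalk protein RPLP0 followed, from 3979 ± 291 to 5267 ± 218 CPM. Further gains were seen in cytoskeletal actin ACTG1 (0.36 log2), the amyloid precursor relative APLP2 (0.82), the histone chaperone NAP1L1 (0.38) and the lysosomal prosaposin PSAP (0.54). Of the 10 largest losses in CPM, 8 were genes of mitochondrial DNA, and the others were MPO and FASN.

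Factors that build ribosomes in the nucleolus were lower in 24 of 29 cases (median -0.67). DDX21, a nucleolar helicase, went from 818, 839, 917 and 827 CPM to 412, 365, 302 and 279 CPM (-1.32 log2, SE 0.10, edgeR adjusted p = 1.7e-08). NHP2, of box H/ACA particles, fell to 32%, PES1 to 35.7% and the nucleolar phosphoprotein NOLC1 to 43.5% of control. POLR1A, the large subunit of RNA polymerase I, fell by 0.94 and nucleolin NCL fell by 0.91 log2 units. NPM1, nucleophosmin, was the 1 member that rose (by 0.21).

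Host genes of small nucleolar RNAs, whose introns carry the guide RNAs of rRNA modification, rose in 14 of 24 cases and fell in 4 (median 0.69). GAS5 went from 231, 244, 247 and 241 CPM to 459, 561, 598 and 594 CPM (1.20 log2, SE 0.08, edgeR adjusted p = 1.51e-09), and ZFAS1 from 114, 114, 121 and 140.3 CPM to 254, 272, 322 and 361 CPM (1.30 log2, SE 0.10, edgeR adjusted p = 3.01e-08). Both were higher in all 4 shRNA 1 libraries than in any control library. SNHG6 rose too, with a wide spread, at 85.2, 109, 171 and 194 CPM against 64.2, 54.9, 65.3 and 57.4 (1.21 log2, SE 0.26, edgeR adjusted p = 0.00511). SNHG15, SNHG16, SNHG17 and DANCR fell. With shRNA 2, GAS5 was lower than control (-0.96 log2, edgeR adjusted p = 2.53e-10) and ZFAS1 was not called (-0.16).

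Long non-coding RNAs rose more often than they fell. Of 476 tested lincRNAs, 169 (35.5%) were higher and 41 (8.61%) lower, while 27.9% of 12250 protein-coding genes were higher and 31.2% lower. The quartile of lowest mean CPM over all genes was also uneven, with 25% higher and 9.28% lower. How far read level accounts for the lincRNA counts was not tested. NEAT1, the scaffold of nuclear paraspeckles and the 1 lincRNA among the 10 largest gains in CPM, went from 414, 489, 395 and 444 CPM to 750.1, 1109, 1574 and 1832 CPM (1.60 log2, SE 0.27, edgeR adjusted p = 0.00184). Its highest shRNA 1 libraries were replicates 3 and 4. With shRNA 2 NEAT1 was not called (0.04 log2).

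Protein quality control split into parts that fell and parts that rose. The proteasome, which degrades ubiquitin-tagged proteins, had 23 of 37 subunit genes lower and 3 higher. PSMD3, of the regulatory lid, went from 257, 248, 293 and 249 CPM to 53, 59.2, 79.5 and 84.4 CPM (-1.93 log2, SE 0.13, edgeR adjusted p = 3.12e-08), and the core subunit PSMB2 from 126, 128, 161 and 145 CPM to 47.2, 42.4, 50.3 and 52.9 CPM (-1.54 log2, SE 0.09, edgeR adjusted p = 3.63e-10). The catalytic subunit PSMB5 fell by 1.04 log2 units and the deubiquitinase PSMD14 fell by 1.39.

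Of 26 heat shock proteins and chaperonins, 19 were lower and 1 was higher. Both cytosolic HSP90 genes fell, HSP90AA1 by 0.69 and HSP90AB1 by 0.55, as did the mitochondrial HSPA9 (by 0.71) and the chaperonin subunit CCT7 (by 0.82). HSF1, the transcription factor of the heat shock response, was the member that rose (by 0.41), and the inducible HSPA1A (0.01) and HSPA1B (0.04) were not called.

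Autophagy delivers cell contents to lysosomes, and of 45 tested genes of the autophagy and lysosome list 29 were higher and 5 lower (median 0.40). SQSTM1, the cargo receptor p62, stood at 79.2, 75.3, 76.6 and 75 CPM in the control and 175, 235, 232 and 235 CPM with shRNA 1 (1.52 log2, SE 0.09, edgeR adjusted p = 2.59e-10). NPC2, which moves cholesterol out of lysosomes, went from 26.4, 31.8, 30.9 and 36.9 CPM to 72.6, 91.8, 107 and 106 CPM (1.58 log2, SE 0.13, edgeR adjusted p = 2.74e-08). Every shRNA 1 library lay about 2-fold or more above the control libraries in both.

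Its membrane partner NPC1 rose by 0.86, the second cargo receptor NBR1 rose by 1.23 and the proton pump subunit ATP6V1B2 rose by 1.12. The lysosomal regulator TFE3 rose by 0.71, and its relative TFEB was not called (0.06). Cathepsin CTSZ went against the list and fell by 1.29. With shRNA 2, NPC2 had a like value (1.69 log2) and SQSTM1 was not called (0.18), and the shRNAs differed in SQSTM1 (edgeR adjusted p = 5.84e-12).

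The kinase mTOR matches growth to nutrients, and its components and inputs went both ways, with 15 of 36 higher and 12 lower. RPTOR, the mTORC1 subunit that binds substrates, fell from 344 ± 21.6 to 175 ± 14.4 CPM, MLST8, shared by both complexes, from 43.1 ± 2.54 to 17.8 ± 1.3 CPM, and the inhibitor DEPTOR from 115 ± 6.44 to 30.2 ± 4.84 CPM. MTOR itself fell by 0.34. SESN3, a stress-induced inhibitor of mTORC1, stood at 126, 129.9, 173 and 154 CPM in the control and 483, 491, 557 and 539.5 CPM with shRNA 1 (1.83 log2, SE 0.10, edgeR adjusted p = 7.02e-11). FLCN rose by 0.83, TSC2 rose by 0.62 and the translation repressor EIF4EBP2 rose by 0.82, while EIF4EBP1 fell by 0.82 and the cap-binding EIF4E fell by 0.82. In the shRNA 2 libraries SESN3 was lower than control (-0.27 log2, edgeR adjusted p = 0.0102) and RPTOR was not called (0.09). DEPTOR and MLST8 were also lower than control with shRNA 2 (-2.40 and -0.64 log2).

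Genes of DNA replication were lower in 32 of 48 cases and higher in 2 (median -0.43). MCM3, of the replicative helicase, went from 282, 298, 334 and 321 CPM to 138, 133, 141 and 139 CPM (-1.16 log2, SE 0.07, edgeR adjusted p = 3.64e-10). RRM1, the large subunit of ribonucleotide reductase, went from 173, 179, 196 and 190.4 CPM to 79.9, 75.6, 70.1 and 78.7 CPM (-1.28 log2, SE 0.07, edgeR adjusted p = 1.91e-10). Groups did not overlap in either. All 6 MCM2 to MCM7 genes fell, from 0.38 for MCM4 to 1.16 for MCM3, whereas the clamp PCNA (0.05), CDT1 (-0.02) and E2F1 (0.03) were not called. Of the replication-dependent histone genes, whose mRNAs carry no poly(A) tail, 2 were tested and 1 fell. CCNE1 fell by 0.86, and CCNE2, the other E-type cyclin, rose by 0.61.

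Mitotic genes followed with smaller changes, 25 of 42 lower and 3 higher. CCNB1, cyclin B1, stood at 77.6, 77, 90.1 and 82.5 CPM in the control and 39.1, 28.8, 42.7 and 43.6 CPM with shRNA 1 (-1.09 log2, SE 0.11, edgeR adjusted p = 3.43e-07). The kinase PLK1 fell to 59.4% of control and MKI67, the proliferation marker Ki-67, fell by 0.44. TOP2A was not called (-0.11), and CCNA2 rose by 0.29. With shRNA 2, against the same control libraries, CCNB1 (0.20 log2, edgeR adjusted p = 0.0846) and PLK1 (-0.01) were not called. The condensin subunit NCAPG and the centromere histone CENPA, which fell by 0.83 and 0.76 log2 units with shRNA 1, were higher than control with shRNA 2 (0.33 and 0.64 log2, edgeR adjusted p = 0.000723 and 0.000457).

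Targets of p53 rose in 7 of 22 cases and fell in 3 (31.8% and 13.6%, against 27.9% and 27% of all tested genes), and CDKN1A, the p21 inhibitor, was at 4.42 ± 0.569 and 5.67 ± 2.35 CPM (not called). MDM2, the ligase that degrades p53, went from 63.8, 66.5, 72.5 and 67.9 CPM to 23.5, 27.8, 20.7 and 17.9 CPM (-1.58 log2, SE 0.12, edgeR adjusted p = 3.4e-09). RRM2B, a reductase subunit for DNA repair, rose from 30.6 ± 1.14 to 72.5 ± 6.92 CPM. In the BCL2 family, which decides on mitochondrial apoptosis, 7 of 17 were lower and 5 higher. The effector BAK1 fell by 1.25, the survival factors BCL2L1 and BCL2 fell by 0.95 and 0.55, and the BH3-only BCL2L11 rose by 0.79, while MCL1 rose by 0.21 and BAX was not called (0.13).

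Of 12 genes that mark the line, 5 were lower, 3 higher and 4 not called, and the surface markers were read in both groups: KIT at 1447 ± 64.8 and 1174 ± 126 CPM, CD33 at 72.1 ± 8.44 and 63.7 ± 6.53, PTPRC at 76.1 ± 2.51 and 129 ± 13.7, and CD34, which fell the most of the list, at 260.4 ± 39.5 and 52.3 ± 5.67. RUNX1T1, which gives the 3′ part of the fusion, went from 189, 191, 168 and 194 CPM to 81.6, 71.3, 79.1 and 66.9 CPM (-1.31 log2, SE 0.08, edgeR adjusted p = 4.28e-10). RUNX1, which contributes the 5′ part of the fusion and also has its own transcripts, went from 364, 385, 379 and 405 CPM to 203, 179, 179 and 179 CPM (-1.05 log2, SE 0.07, edgeR adjusted p = 1.11e-09). Reads of the fusion and of the normal RUNX1 allele cannot be told apart in gene counts. In the RUNX and ETO family 5 of 7 were lower: RUNX2 and RUNX3 also fell, by 0.63 and 0.76, and CBFA2T2, a relative of RUNX1T1, rose by 0.62. With shRNA 2, RUNX1 was at -0.06 and RUNX1T1 at -0.39 log2 units.

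Stem and progenitor factors were lower in 15 of 25 cases and higher in 5. CD34, the surface marker of progenitors, stood at 233, 220.2, 299 and 289.7 CPM in the control and 55.3, 43.8, 55.5 and 54.5 CPM with shRNA 1 (-2.32 log2, SE 0.11, edgeR adjusted p = 5.18e-11). ERG, an ETS factor of stem cells, went from 148, 137, 164 and 162 CPM to 39.2, 30.6, 39.3 and 40.1 CPM (-2.04 log2, SE 0.10, edgeR adjusted p = 1.6e-11). They stood at 20.1% and 24.4% of the control mean, without overlap. Set directly against shRNA 1, the shRNA 2 libraries were higher by 1.78 for CD34 and 1.84 for ERG log2 units (edgeR adjusted p = 3.57e-12 and 3.79e-14). Against control, both genes were lower with shRNA 2 as well, CD34 at -0.55 and ERG at -0.21 log2 units (edgeR adjusted p = 5.25e-05 and 0.0354).

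TAL1, BCL11A, ETV6, FLT3 and SOX4 also fell, by 1.80, 1.48, 1.23, 1.14 and 1.11 log2 units, and KIT by 0.30. MYB rose by 0.31, LMO2 rose by 0.29, and GATA2 was not called (-0.13). The myeloid transcription factors were higher in 7 of 16 cases and lower in 3. MEF2C had the steepest fall, from 149.9, 154, 151 and 155 CPM to 20.1, 15.7, 15.7 and 14.2 CPM (-3.21 log2, SE 0.10, edgeR adjusted p = 1.46e-13).

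CEBPD, CEBPB and CEBPE, factors of granulocyte and monocyte maturation, rose by 1.17, 1.12 and 0.98. CEBPD stood at 53.4, 79.9, 102 and 114 CPM in shRNA 1 replicates 1 to 4 against 38.2, 34.1, 42.5 and 39.7 in the control, so that the groups parted while replicate 1 lay nearest to the control. SPI1, the PU.1 factor, rose by 0.58. CEBPA had a mean under 1 CPM in both groups.

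Granulocyte markers went both ways, 5 of 11 higher and 3 lower. MPO, myeloperoxidase, was the largest loss in CPM of all genes without overlap, from 15425, 15671, 17373 and 16385 CPM to 6068, 6559, 7819 and 8673 CPM (-1.16 log2, SE 0.10, edgeR adjusted p = 3.36e-08). AZU1, azurocidin, went from 84.4, 79.8, 89.4 and 96.6 CPM to 127, 187, 289 and 385 CPM (1.49 log2, SE 0.35, edgeR adjusted p = 0.0101), with a 3-fold spread inside the shRNA 1 group. PRTN3, proteinase 3, was not called, at 152, 291, 383 and 556 CPM with shRNA 1 against 174, 159, 177 and 169 in the control, nor were ELANE (0.84) and CTSG (-0.41). BPI rose from 3.37 ± 0.628 to 22 ± 8.32 CPM, and CEACAM6 and the G-CSF receptor CSF3R fell to 24% and 40.4% of control. CEACAM6 shares sequence with its family.

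Monocyte and macrophage markers had 7 of 13 tested genes higher and 4 lower. Cathepsin S, CTSS, rose from 35.2 ± 4.89 to 78.7 ± 12.7 CPM, the integrin ITGAX from 10.4 ± 2.59 to 17.5 ± 1.27 CPM, and ITGAM, LYZ, TLR2, FCGR1A and FCGR2A rose as well, whereas the oxidase parts CYBB and NCF4 fell. CD14, CD68, CD163, S100A8 and S100A9 were under the filter on low counts. The summed level of the list was 244 to 266 CPM in the control libraries and 286 to 324 CPM with shRNA 1.

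Of the markers of other lineages that matched a gene of the table, most were too low to test, with 7 of 22 lymphoid, 8 of 23 erythroid and megakaryocyte and 4 of 16 non-blood markers tested. Called lower were 4, 3 and 2 of these, and called higher 1, 2 and 1. HBB, MS4A1, COL3A1 and DCN had no read in any of the 8 libraries. Some single genes of these lists were well expressed and fell: EPCAM from 134 ± 11.7 to 42.7 ± 4.58 CPM, CD4 from 121 ± 11.1 to 37.1 ± 4.75 CPM, PAX5 from 76.6 ± 8.28 to 47.2 ± 7.81 CPM and the transferrin receptor TFRC from 1054 ± 31.2 to 410.3 ± 10.6 CPM. Summed over the lymphoid list, CPM ran from 233 to 252 in the control and from 107 to 116 with shRNA 1, and over the non-blood list from 130.2 to 154 and from 43.8 to 52.4. Most of the lymphoid sum came from CD4 and PAX5, and most of the non-blood sum from EPCAM. Whether other cells contribute to these counts was not tested.

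Iron genes also moved in 2 directions, 9 of 23 higher and 7 lower. The ferritin chains, which store iron, rose. FTH1 stood at 115, 96.6, 96.2 and 78.7 CPM in the control and 194, 310.1, 460.2 and 535 CPM with shRNA 1 (1.96 log2, SE 0.34, edgeR adjusted p = 0.00238), and FTL at 648, 604, 783 and 694 CPM and 1032, 1468, 1668 and 1729 CPM (1.11 log2, SE 0.14, edgeR adjusted p = 3.29e-05). The increase was smallest in shRNA 1 replicate 1 and largest in replicate 4 for both. Uptake genes fell, TFRC to 38.9% and TFR2 to 35.8% of control. ISCU, the scaffold of iron-sulfur clusters, rose by 1.12. Ferritin genes have processed pseudogenes, so their counts are uncertain.

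NF-kB and inflammatory genes were higher in 9 of 19 cases and lower in 4. The chemokine CXCL8 rose from 2.02, 2.56, 0.553 and 1.73 CPM to 8.53, 16.6, 11.2 and 13.6 CPM (2.88 log2, SE 0.32, edgeR adjusted p = 1.39e-06), and TNFAIP3, a feedback inhibitor, from 11.3, 10.3, 7.4 and 9.81 CPM to 27.5, 28.3, 29.7 and 35.5 CPM (1.64 log2, SE 0.14, edgeR adjusted p = 2.99e-08). Of the subunits, RELB rose by 1.24 and NFKB1 fell by 1.07, while RELA was not called (-0.10). CXCL8 stayed under 20 CPM in every library.

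Immediate early genes respond to growth signals within minutes, and ERK feedback inhibitors damp the same signals. Together they rose in 13 of 31 cases and fell in 5. FOS went from 1.42, 1.45, 1.31 and 1.73 CPM to 5.49, 10.3, 8.33 and 10.4 CPM (2.53 log2, SE 0.26, edgeR adjusted p = 2.46e-07) and JUN from 24, 30.3, 19.99 and 24.4 CPM to 42.1, 60.1, 51.8 and 59.7 CPM (1.12 log2, SE 0.13, edgeR adjusted p = 1.65e-06). In both the lowest shRNA 1 library stood above the highest control library. EGR1 rose by 1.44 and NR4A1 rose by 1.05. MYC, on the same list, fell from 696 ± 20.2 to 359 ± 36.9 CPM.

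Interferon-stimulated genes had 10 of 38 higher and 9 lower, close to the background. IRF7 rose by 1.05, while IFITM3 fell to 35.4% of control, ADAR fell by 0.97 and EIF2AK2 fell by 0.78, without a common direction. In MHC class II, 5 of 11 were lower and 2 higher. HLA-DPB1 went from 17.1, 15.6, 7.54 and 7.25 CPM to 3.78, 3.51, 2.66 and 2.07 CPM (-1.96 log2, SE 0.30, edgeR adjusted p = 3.86e-05), with controls 1 and 2 about 2-fold above controls 3 and 4, and the master regulator CIITA was not called (-0.36).

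Serine and one-carbon metabolism, which feeds nucleotide synthesis, was lower in 12 of 19 genes and higher in 3. PSAT1, the serine transaminase, went from 92.2, 107, 121 and 99.8 CPM to 34.9, 25.3, 31.7 and 33.9 CPM (-1.74 log2, SE 0.11, edgeR adjusted p = 5.37e-10), and the mitochondrial MTHFD1L from 120.1, 111, 124 and 119.6 CPM to 38.2, 38.5, 38.1 and 39.6 CPM (-1.62 log2, SE 0.07, edgeR adjusted p = 1.11e-11). PHGDH, the first enzyme of serine synthesis, was not called, at 130.4 ± 3.19 and 139 ± 8.34 CPM. Of the glycine cleavage system, GLDC fell from 5.85 ± 1.17 to 0.318 ± 0.315 CPM and AMT rose from 6.73 ± 0.754 to 26.3 ± 8.25 CPM.

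The ATF4 list, which answers amino acid shortage and unfolded protein, had 10 of 22 higher and 9 lower. PPP1R15A, the phosphatase subunit that restarts translation, stood at 20.1, 19.1, 16.7 and 21.6 CPM in the control and 56.4, 69.5, 73.4 and 85.3 CPM with shRNA 1 (1.87 log2, SE 0.12, edgeR adjusted p = 8.96e-10). DDIT3, known as CHOP, rose from 5.43 ± 1.61 to 16.5 ± 4.4 CPM, and ATF4 itself rose by 0.39. The chaperone HSPA5 and the transporter SLC7A5 fell, by 0.79 and 0.76, and ASNS was not called (0.24). Aminoacyl-tRNA synthetases were lower in 10 of 20 cases, among them RARS1, which fell to 50% of control, and IARS1, to 57.2%. In branched-chain amino acid breakdown 7 of 18 fell and 2 rose, BCAT1 from 148 ± 3.72 to 44.5 ± 11.9 CPM.

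Among the factors that cut and tail mRNA, 12 of 25 were lower, FIP1L1 included, and 3 higher. After FIP1L1 itself and PPP1CA, a phosphatase attached to the complex (from 289.9 ± 20.9 to 102 ± 6.36 CPM), the falls were small: CSTF1 fell by 0.62, CPSF2 fell by 0.49, NUDT21 fell by 0.33 and CPSF6 fell by 0.42. The partners that hold FIP1L1 in the specificity factor, CPSF1, WDR33 and CPSF4, were not called, and the endonuclease CPSF3 rose by 0.30.

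Splicing factors were lower in 28 of 47 cases and higher in 7. HNRNPA1 went from 2063, 2162, 2223 and 2249 CPM to 1115, 1085, 1030.0 and 1086 CPM (-1.01 log2, SE 0.07, edgeR adjusted p = 1.05e-09) and SRSF1 from 312, 318, 359 and 311 CPM to 146, 142, 159.5 and 175 CPM (-1.06 log2, SE 0.08, edgeR adjusted p = 5.03e-09). SRSF5 was the exception with the largest rise, from 73.2, 86.9, 83.4 and 86.7 CPM to 129.7, 145, 213 and 266 CPM (1.19 log2, SE 0.22, edgeR adjusted p = 0.00153), highest in replicate 4. PTBP1 and HNRNPH1 were not called. In deadenylation and decay, 12 of 24 were lower and 2 higher. CNOT6, a deadenylase of the CCR4-NOT complex, fell from 106 ± 7.12 to 49.5 ± 4.26 CPM, and PAN2, the catalytic subunit of another deadenylase, rose from 39.4 ± 7.18 to 86.3 ± 12.3 CPM. Among microRNA factors 5 of 13 were higher and 5 lower, with XPO5, which exports precursors, at -0.64 and TNRC6A, a silencing adaptor, at 0.96 log2 units.

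Receptors and effectors of the NOTCH pathway had 5 of 20 higher and 6 lower (25% and 30%), close to the background of 27.9% and 27%. NOTCH3 fell as given above, NOTCH1 rose by 0.32, and of the sugar transferases that tune the receptors MFNG fell by 1.81 while RFNG rose by 1.32. Among leukocyte integrins and adhesion genes 12 of 29 were higher and 9 lower. ITGB1, the common beta 1 chain, went from 251, 250.5, 289 and 299 CPM to 90.3, 109, 105 and 116 CPM (-1.38 log2, SE 0.09, edgeR adjusted p = 6.26e-10), and its partner ITGA9 from 67.2, 67, 63 and 68.9 CPM to 10.2, 14, 11.8 and 13.5 CPM (-2.43 log2, SE 0.11, edgeR adjusted p = 9.87e-12). The tetraspanin CD82 rose from 7.39, 6.92, 3.46 and 5.3 CPM to 22.1, 42.7, 35.1 and 46.5 CPM (2.68 log2, SE 0.26, edgeR adjusted p = 2.62e-06), and ITGB2, the leukocyte beta 2 chain, rose by 0.73. With shRNA 2 ITGB1 was higher than control (0.63 log2, edgeR adjusted p = 1.65e-07) and CD82 stood at 2.84.

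By annotation, the length of a protein-coding gene from first to last base was related weakly to its change. In the quartile of longest genes 24.6% were higher and 35.4% lower, and in the shortest quartile 27.2% and 28.2%. Chromosome 19, dense in zinc-finger genes, had 33.7% of 1132 tested genes higher and 21.1% lower, with a median of 0.16. These shares are descriptions over genes, which are not independent of each other, and they share level and length with one another.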

How the data were processed

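RNA-seq libraries of Kasumi-1 cells were analysed, 4 with the control shRNA and 4 with FIP1L1 shRNA 1, grouped by their labels. The authors deposited raw read counts per Ensembl gene. The submitters' processing notes name STAR 2.7.3a, cutadapt 2.6, DESeq2 and the build hg19, without their roles. Which tool, annotation and strand setting produced the counts is not stated in them or the labels. Gene names, biotypes and coordinates came from GENCODE 29 on GRCh38, and 45342 of 48162 IDs matched a symbol. Promoter sequences came from RefSeq.

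Total counts per library ran from 12236937 to 20388437. Genes of low count were removed with edgeR's filterByExpr. TMM scaling and edgeR 4.0.16 (R 4.3.3, limma 3.58.1) gave quasi-likelihood tests on the counts, 2-sided, with robust dispersions and Benjamini-Hochberg adjustment over all 15165 genes, and a gene was called at an adjusted p under 0.05. Levels are CPM on TMM-scaled library sizes, given as mean ± SD over the 4 libraries of a group. CPM does not allow for gene length, so levels are compared within a gene. The procedure was tested on simulated counts in which most genes were unchanged. That setting differs from these data, where 54.9% of tested genes were called. Values for shRNA 2 came from a fit of all 12 libraries.

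Named genes were FIP1L1, the 15 highest and 15 lowest log2 changes (called, mean of at least 5 CPM, a symbol, no overlap of groups), the 10 largest gains and losses in CPM, and up to 4 called members of each of 48 lists with the largest log2 change and at least 5 CPM. Further members were named after their values were seen. The members and lists were chosen with earlier results of these data known. The labels call the replicates biological without saying that they were transduced separately, and the p-values then describe only how these samples scatter. Alternatives were RLE scaling, DESeq2 1.42.0, no filter on low counts, non-robust dispersions, a replicate block, all 12 libraries and leaving out each library. Some genes of the lists are not reported here.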

Additional observations from a re-analysis of the deposited data

Results flagged for a closer look

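Each group of 4 libraries was checked for 1 library far from the other 3 in each of the 222 named genes, by Dixon's ratio of the gap to the whole range above its critical value for 4 samples. Of 444 groups checked, 22 passed, and chance alone passes about 1 in 20. Among control libraries these were SNORD3A in replicate 1 at 2.99 CPM (1.20 to 1.45 in the others), NLRP6 in replicate 2 at 1.96 CPM (0.669 to 0.830 in the others), RASSF2 in replicate 1 at 6.79 CPM (4.91 to 5.13 in the others) and NOTCH3 in replicate 4 at 11.7 CPM (18.6 to 19.4 in the others). Further control values were CSTF1 in replicate 1 at 47.4 CPM (55.2 to 56.8 in the others), SRSF1 in replicate 3 at 359 CPM (311 to 318 in the others), LSS in replicate 4 at 136 CPM (157 to 160.2 in the others) and RARS1 in replicate 1 at 82.4 CPM (91.5 to 93.0 in the others). The last control values were WIPI1 in replicate 4 at 1.67 CPM (4.10 to 4.48 in the others), RPTOR in replicate 1 at 376 CPM (332 to 337 in the others) and TP53INP1 in replicate 3 at 2.63 CPM (5.30 to 5.81 in the others). Among shRNA 1 libraries these were PKDREJ in replicate 1 at 17.3 CPM (10.2 to 11.4 in the others), ZNF24TR in replicate 4 at 0.0669 CPM (0.554 to 0.629 in the others), CD109 in replicate 4 at 3.48 CPM (4.49 to 4.66 in the others) and CD34 in replicate 2 at 43.8 CPM (54.5 to 55.5 in the others). Others with shRNA 1 were ERG in replicate 2 at 30.6 CPM (39.2 to 40.1 in the others), RUNX1 in replicate 1 at 203 CPM (179 in the others), ELOVL6 in replicate 2 at 6.65 CPM (8.42 to 8.75 in the others) and PGLS in replicate 4 at 41.6 CPM (38.3 to 38.6 in the others). The remaining shRNA 1 values were RARS1 in replicate 1 at 52.1 CPM (41.4 to 43.1 in the others), SQSTM1 in replicate 1 at 175 CPM (232 to 235 in the others) and PLK1 in replicate 4 at 52.7 CPM (48.8 to 49.2 in the others). In none of these genes did the value reach the libraries of the other group.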

How the results depend on the processing

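The count of called genes, 8330, was 8341 with RLE scaling, 8471 with DESeq2, 8670 of 27775 genes without a filter on low counts, 8336 without robust dispersions, 9076 with all 12 libraries and 7709 to 8555 when 1 library was left out. Of the 8330 calls, 8269 were kept with RLE scaling and 8286 with DESeq2. Over all genes, deviations of same-numbered libraries correlated weakly, with r of -0.0232 to 0.0799. With shRNA 1 replicate 4, r was -0.127 for control 2 and 0.0999 for control 3. HLA-DPA1 was higher in replicates 1 and 2 of both groups: 41.8, 46.6, 23.8 and 26.9 CPM in the control, and 18.7, 16, 12.5 and 14.1 CPM with shRNA 1. Whether replicates 1 and 2, or 3 and 4, share a batch across groups was not tested. With the replicate block 8325 genes were called, of which 8115 were among the 8330. Over 14 alternatives, none of the 222 named genes changed direction, and all but 3 kept their call in each of them. The call was lost for MT-ATP8 in 7 alternatives, for HSPE1 in 6 and for RPL26 in 5. Of 97 counts of called genes, in all and by list, 12 moved by over 1.5 times in some alternative, 40 times of 1358. All 40 but 2 came from leaving out 1 library; the others were the count of higher cholesterol genes with all 12 libraries (2 in place of 1) and of higher pentose phosphate genes without the filter (1 in place of 2). Lower cytosolic ribosomal proteins went from 9 to 5 without control replicate 3 or shRNA 1 replicate 2, and lower microRNA factors from 5 to 3 without control replicate 1, 2 or 4 or shRNA 1 replicate 3. Higher members went from 3 to 5 in the Kasumi-1 identity list without shRNA 1 replicate 1, and from 2 to 4 in deadenylation without shRNA 1 replicate 3 or 4. The 1 higher member fell out in glycolysis without control replicate 2 or 4 or shRNA 1 replicate 1 or 3, in ribosome biogenesis without control replicate 1, 2 or 4 or shRNA 1 replicate 1 or 2, in mitochondrial DNA upkeep without control replicate 3 or 4 or shRNA 1 replicate 1 or 3, in the ATP synthase without control replicate 2 or shRNA 1 replicate 4, and in the cholesterol list without control replicate 1, where control replicate 3 left out gave 2. Higher members went from 2 to 1 in DNA replication without control replicate 1 or 2 or shRNA 1 replicate 3 or 4 and in the pentose phosphate list without control replicate 2 or 4 or shRNA 1 replicate 3, and from 2 to 0 or 1 among tRNA synthetases without control replicate 1, 2 or 4 or shRNA 1 replicate 1 or 2. The cause was not tested. Genes under the filter, such as most markers of other lineages, were not testable at this depth, and 9058 genes had an unadjusted p under 0.05.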

Other observations

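Annotated antisense RNAs and processed pseudogenes were also counted as classes; ZFAS1 and SNHG7, both among the snoRNA host genes, are annotated as antisense. Of 750 tested antisense RNAs, 29.1% were called higher and 6.93% lower with shRNA 1, with a median log2 change of 0.39. The quartile of lowest mean CPM over all genes had like values, 25% higher and 9.28% lower with a median of 0.37. How far read level accounts for the antisense counts was not tested. Of 458 processed pseudogenes, 13.8% were higher and 9.39% lower, with a median of -0.05.

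Several tested members of the lists of other lineages were not yet described, and they went both ways. CD79B, a signalling chain of the B cell receptor, fell by 1.22 and its partner CD79A by 1.61 on the log2 scale. SLC4A1, the band 3 anion exchanger of red cells, fell by 3.98, and PDGFRB, a growth factor receptor of stromal cells, by 2.03. GATA1, the erythroid transcription factor, rose by 1.70 from a mean under 1 CPM. NKG7, a granule protein of natural killer cells, rose by 1.00, with overlapping groups. EPOR, the erythropoietin receptor, rose by 0.70, and ACTA2, smooth muscle actin, rose from a mean of 0.824 to 2.34 CPM. In the lymphoid, the erythroid and megakaryocyte and the non-blood list, 4 of 7, 3 of 8 and 2 of 4 tested members were lower and 1, 2 and 1 higher. These genes were chosen after their values were seen.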
